A study of Cucumis melo with 4 samples.

Results

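Proteases cut proteins at peptide bonds, and 165 genes annotated with this activity or its regulation were assigned a binding peak of CmNOR in melon (Cucumis melo). CmNOR belongs to the NAC family of plant transcription factors, and its name recalls NON-RIPENING, a tomato gene needed for fruit ripening. The 165 genes are those of the authors' table of binding sites with a Gene Ontology (GO) name containing proteolysis, peptidase activity or protease, and without any name containing ubiquitin or proteasome. They are 4.84% of the 3406 genes with a GO term in the table, which lists 4510 genes in all. They hold 187 of its 5493 peaks. Of 178 genes that matched the names for protein cutting or its regulation, 13 were set aside for a ubiquitin or proteasome name. All 165 that remained are called protease genes here. Among them, 12 are inhibitor genes, taken in only by a name for the regulation of peptidase activity. The rule read GO names only, but every gene was listed because a peak was assigned to it. The group was also proposed with earlier results of these data known. The carboxypeptidases were singled out for comparison when an earlier reading of the same table had already shown them often to have peaks upstream.

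Binding was measured by DAP-seq, in which a tagged protein purified from bacteria is mixed with melon genomic DNA and the retained fragments are sequenced. The bait in 2 libraries was MBP-His-CmNOR, the factor carrying maltose-binding protein and a His tag for purification, and in 2 control libraries the MBP-His part alone. The labels' source field names CmNOR for all 4, so the groups follow the field for the tagged protein. Purified DNA carries no nucleosomes, and the protocol also describes PCR-amplified DNA, without saying which libraries used it. The authors' table holds 1 combined list of peaks with positions, widths and assigned genes, and no value per library. Depth is therefore unknown and no comparison of MBP-His-CmNOR with MBP-His could be made here. Ranges in brackets after a share are 95% exact Clopper-Pearson intervals, which cover counting error only. Genes of a class are not replicate samples, so differences between classes are described and were not tested. Neither the labels nor the table name the genome build of the coordinates, and genes are given by identifier with the function their GO names state.

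Plant proteases are sorted by the residue or ion that makes the cut. Serine and cysteine proteases attack the peptide bond with a side chain of their own, while aspartic proteases and metalloproteases activate a water molecule with aspartate residues or with a metal ion. Endopeptidases cut inside a protein chain, aminopeptidases trim it from the amino end and carboxypeptidases from the carboxyl end. Many plant proteases work in the vacuole or the cell wall, where they recycle proteins in senescing tissue, mature seed stores and take part in defense. The genes were sorted in a fixed order into carboxypeptidases (12 genes), aminopeptidases (6), aspartic (24), cysteine (63), serine (19) and metallo (12) types. A further 29 genes, called other here, carry none of these class names. No gene had a threonine-type name, and 11 genes matched more than 1 class, 7 of them as carboxypeptidases with a serine-type name.

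**Figure D1:**
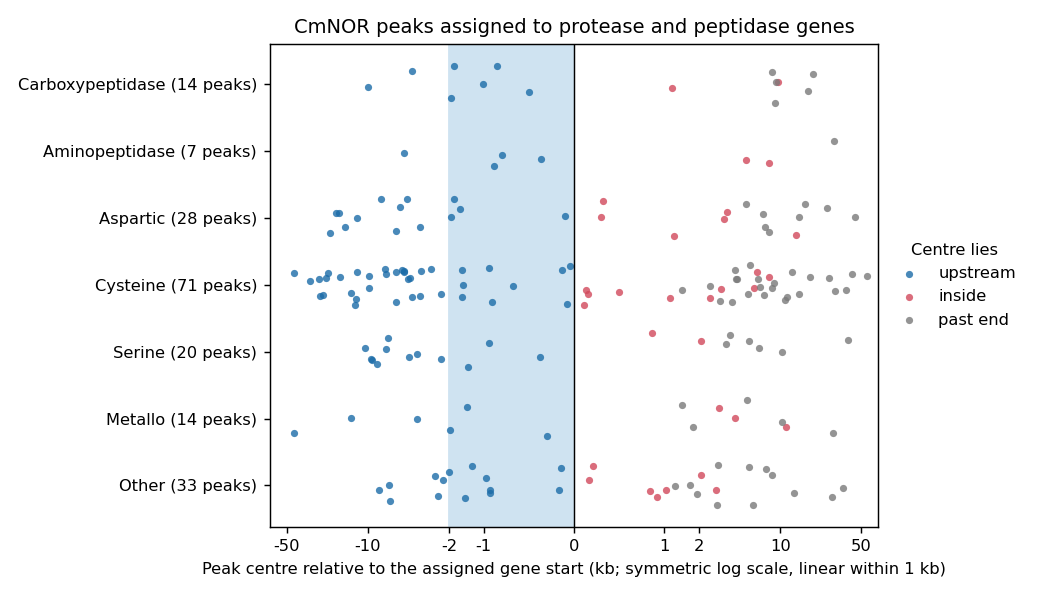
Position of all 187 peak centres relative to the start of the assigned gene, in kb on a symmetric log axis that is linear within 1 kb, 1 row of points per class with random vertical spread. The shaded band is the 2 kb upstream window, which holds 34 peaks, and colours show whether the centre lies upstream of the gene, inside it or past its end.

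The share of protease genes with a CmNOR peak upstream was slightly above that of all GO-annotated genes, by less than its counting error. A peak centred in the 2 kb before the gene start was found at 34 of the 165 genes, or 20.6% (14.7 to 27.6), against 17.8% of all GO-annotated genes (605 of 3406). Within 1 kb upstream the count was 20 genes, or 12.1% (7.56 to 18.1), against 9.72%. Peaks over the gene start itself belonged to 10 protease genes, 6.06% (2.94 to 10.9), against 4.37% of all GO-annotated genes. The authors' promoter class, a peak whose nearer edge lies within 3 kb of the start on either side, held 71 of the 165, or 43.0% (35.4 to 51.0), against 49.0%. All 4 of these intervals take in the share of all GO-annotated genes.

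Peaks of protease genes lay past the gene's end more often, and inside it less often, than those of GO-annotated genes as a whole. Of the 187 peaks, 94 had their centre upstream of the gene (50.3%), 32 inside it (17.1%) and 61 past its end (32.6%). For the 4107 peaks of all GO-annotated genes the shares were 50.5% upstream, 24.9% inside and 24.6% past the end. Protease gene models were also shorter, with a median span of 2402 bp against 3336 bp, and 29 of the 165 (17.6%) spanned less than 500 bp, against 7.31% of all GO-annotated genes. In models of at least 500 bp the share of peaks past the end was 27.1% for protease genes, against 22.8% for all GO-annotated genes. In shorter models it was 59.4%, against 47.0%. These differences were not tested.

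**Figure D2:**
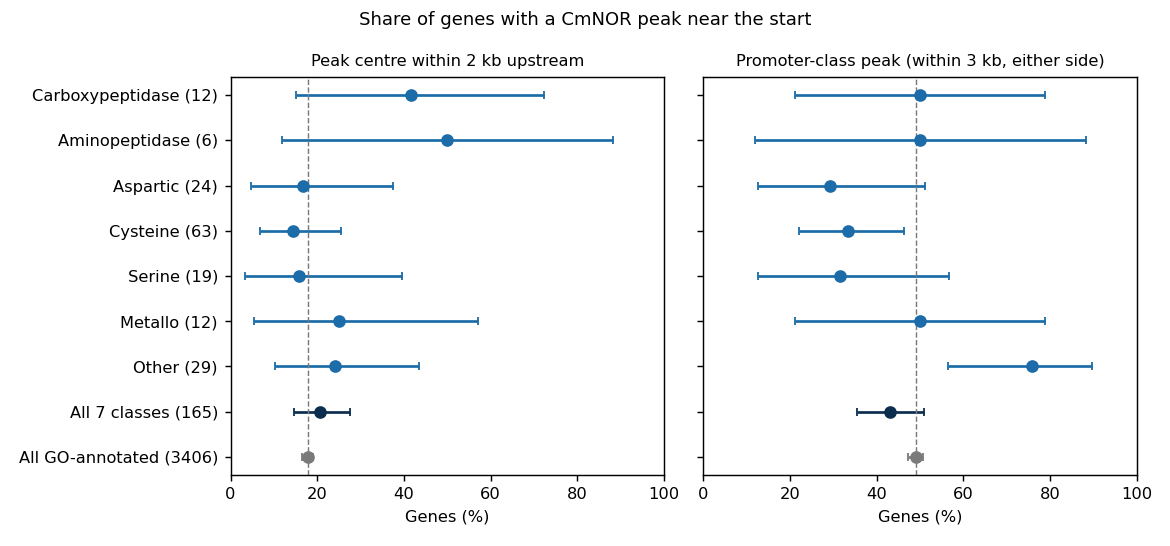
Share of genes, in percent, with a peak centre within 2 kb upstream (left) and with a promoter-class peak (right), by class with the number of genes in brackets. Lines are 95% exact intervals and the dashed line is the share of all 3406 GO-annotated genes; for upstream peaks it lies inside the interval of every class, and for promoter-class peaks it lies above that of the cysteine class and below that of the other class.

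Carboxypeptidases had upstream peaks at 5 of 12 genes, or 41.7% (15.2 to 72.3), against 29 of the 153 genes of the remaining classes, or 19.0% (13.1 to 26.1). The intervals overlap, and the 17.8% of all GO-annotated genes lies within that of the carboxypeptidases. By the authors' promoter class the carboxypeptidases were level with the background, at 6 of 12 genes (50.0%) against 65 of 153 (42.5%) in the remaining classes. A centre within 1 kb upstream was found at 2 of the 12 genes, or 16.7% (2.09 to 48.4), against 11.8% in the remaining classes and 9.72% of all GO-annotated genes. A peak over the start was found at 0 of the 12 (up to 26.5%), against 6.54% in the remaining classes and 4.37% of all GO-annotated genes.

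The 5 carboxypeptidase genes with an upstream peak included 3 of the 5 genes named as serine carboxypeptidases, vacuolar or secreted enzymes that remove single residues from the carboxyl end. MELO3C027328.2, on the sequence called chr0, had a peak of 344 bp at 6679574 to 6679917, with its centre 500 bp upstream. MELO3C009826.2 on chromosome 4 had a peak of 535 bp at 28921479 to 28922013, with its centre 856 bp upstream. MELO3C010046.2 on chromosome 2 had a peak of 911 bp at 12517850 to 12518760, with its centre 1911 bp upstream. That peak was the widest of all 187, near the 2 kb limit, at a gene spanning 25437 bp.

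The other two were MELO3C021473.2 and MELO3C001808.2. MELO3C021473.2 on chromosome 11, named for carboxypeptidase and serine-type peptidase activity, had a peak of 415 bp at 29118676 to 29119090, centred 1809 bp upstream. MELO3C001808.2 on chr0 had a peak of 332 bp at 34403180 to 34403511, centred 1010 bp upstream. This last gene model spans 204 bp, room for at most 68 codons. Melon genome assemblies use chr0 for sequence not placed on a chromosome, and 2 of the 5 genes lie on it. Without chr0 the count was 3 of 9 carboxypeptidase genes, against 17.9% of all GO-annotated genes there.

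The remaining 7 carboxypeptidase genes had peaks inside or past the gene or far upstream. MELO3C004835.2 on chromosome 12, of serine type, was the only carboxypeptidase gene with more than 1 peak. Its 3 peaks were centred 1163 bp into the gene of 1937 bp and 9188 and 19013 bp from the start, past the gene's end. MELO3C019977.2 on chromosome 3 is the only metallocarboxypeptidase, which uses a zinc ion, and had its peak in intron 8 of 13, 9550 bp from the start. The peak of the serine carboxypeptidase gene MELO3C004117.2 on chromosome 5 lay past the gene's end, in exon 2 of 19 of the neighbouring gene MELO3C004118.2. The serine carboxypeptidase gene MELO3C035600.2 and MELO3C020311.2 had peaks 8527 and 17179 bp from their starts, both past the end. MELO3C033659.2 and MELO3C027548.2, with models of 218 and 214 bp, had peaks 4154 and 9992 bp upstream.

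**Figure D3:**
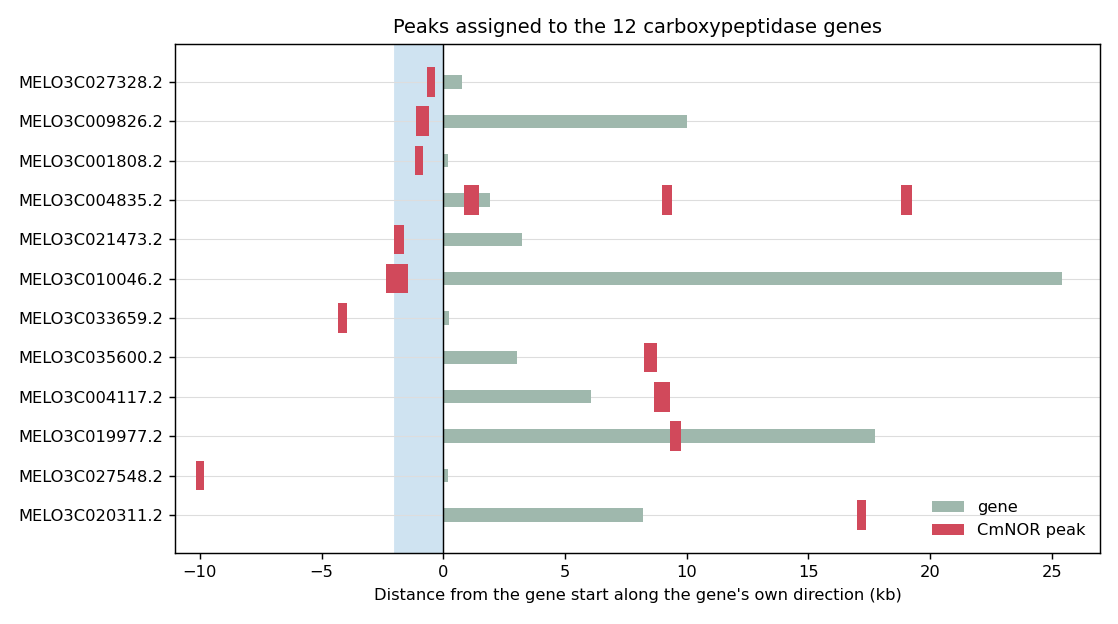
The 12 carboxypeptidase genes drawn to scale in their own direction from the gene start at 0 (kb), with the gene as a green bar and peaks as red boxes, ordered by the distance of the nearest peak centre. The shaded band is 2 kb upstream and holds the peak centres of 5 genes; 3 gene models span less than 500 bp.

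Aminopeptidases, the other exopeptidases, had upstream peaks at 3 of 6 genes, or 50.0% (11.8 to 88.2), against 17.8% of all GO-annotated genes. All 3 lay within 1 kb, where the share of all GO-annotated genes was 9.72%. MELO3C004172.2 on chromosome 5, named for aminopeptidase activity and manganese binding, had a peak of 456 bp at 24902411 to 24902866, centred 368 bp upstream. MELO3C020895.2 on chromosome 11 carries the names of a metalloaminopeptidase that removes the initiator methionine from new proteins. Its peak, 325 bp at 3116726 to 3117050, was centred 800 bp upstream. MELO3C014774.2 on chromosome 6, a membrane aminopeptidase gene, had a peak of 326 bp centred 887 bp upstream and another of 386 bp in its intron 4 of 14. MELO3C023023.2, the second gene named for methionine removal, had its peak in intron 7 of 9, 5020 bp from the start. The widest peak of this class, 542 bp, was assigned to MELO3C007085.2 but lies in exon 4 of 27 of MELO3C007086.2. MELO3C033369.2 had its peak 29091 bp from the start, past the gene's end. With 6 genes, the interval spans most of the possible range.

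The aspartic, cysteine and serine classes had lower shares of promoter-class peaks than the 49.0% of all GO-annotated genes. Aspartic genes had a promoter-class peak at 7 of 24 (29.2%, 12.6 to 51.1), cysteine genes at 21 of 63 (33.3%, 22 to 46.3) and serine genes at 6 of 19 (31.6%, 12.6 to 56.6). The intervals of the aspartic and serine classes take in 49.0%. Together the classes came to 34 of 106 genes, or 32.1% (23.3 to 41.8), a grouping made after the values were seen. Upstream peaks within 2 kb were found at 16 of the 106, 15.1% (8.88 to 23.4), close to the 17.8% background. Distal intergenic peaks made up 68 of their 119 peaks (57.1%), against 42.6% of the peaks of all GO-annotated genes.

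Peaks of these classes lay less often near chromosome ends, where promoter-class peaks are common among all GO-annotated genes. Of the 112 peaks of the aspartic, cysteine and serine classes on the 12 numbered chromosomes, 19 (17.0%) fell in the outer 10% at either end, against 29.2% for all GO-annotated genes. Each chromosome was measured up to its last listed peak, not by its full length. In the inner part, 22 of 93 peaks were promoter-class (23.7%), against 35.1% for all GO-annotated genes. In the outer part it was 12 of 19 (63.2%), against 63.1%. By class, the share of peaks in the outer part was 21.4% for aspartic, 12.1% for cysteine and 27.8% for serine genes. It was 9.09% for carboxypeptidases, 28.6% for aminopeptidases, 28.6% for metalloproteases and 22.6% for the other class. For all protease genes it was 18.9%, so a low share was not particular to the pooled classes. Gene spacing along the chromosomes was not measured, and its part in these shares was not tested.

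**Figure D4:**
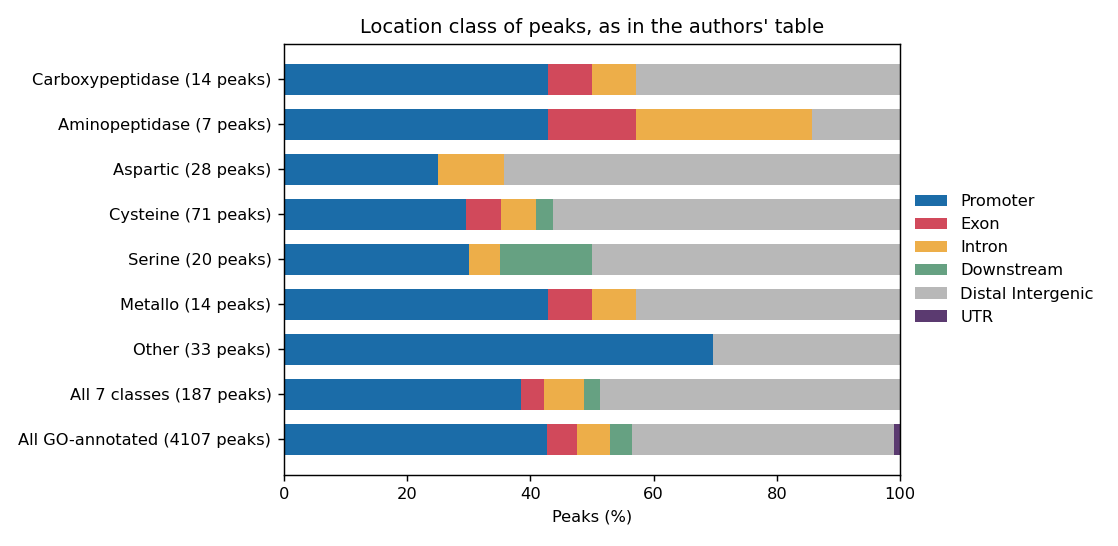
Location class of peaks in percent of each class's peaks, as given in the authors' table, with the number of peaks in brackets. Distal intergenic peaks (grey) take up 57.1% of the aspartic, cysteine and serine peaks together and promoter-class peaks (blue) 69.7% of those of the other class, against 42.6% and 42.7% for all GO-annotated genes.

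Cysteine proteases include the papain-type enzymes of the vacuole, and their class was the largest. It also takes in 10 inhibitors, since the sorting read the words cysteine-type in an inhibitor's name. Without them it held 53 genes, 8 with an upstream peak (15.1%) and 17 with a promoter-class peak (32.1%). The shares of all GO-annotated genes were 17.8% and 49.0%. MELO3C018636.2 on chromosome 1, named for defense response and positive regulation of programmed cell death, had a peak of 519 bp at 1659106 to 1659624, centred 677 bp upstream. MELO3C018473.2 on chromosome 1 is named for lysosome and extracellular space, and had a peak of 465 bp at 497101 to 497565, centred 1538 bp upstream. These were 2 of the 3 genes named for cysteine-type endopeptidase activity. The third, MELO3C028784.2, is also named for CAAX-box processing, the trimming of lipid-anchored proteins at the endoplasmic reticulum, and had its peak 9794 bp upstream.

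Most of the cysteine class, 46 genes, carried no names beyond proteolysis and peptidase activity. Of these, 5 had an upstream peak (10.9%, 3.62 to 23.6), against 17.8% of all GO-annotated genes. The nearest peak of all 165 genes belonged to MELO3C029579.2 on chromosome 2. It covered the start, with its centre 46 bp upstream. MELO3C031928.2 on chromosome 6 also had a peak over its start, centred 80 bp upstream, and a second one 4361 bp upstream. MELO3C033275.2 on chromosome 8 had peaks centred 939 and 4847 bp upstream. MELO3C014811.2 on chromosome 6 had one at 1550 bp, and MELO3C030038.2 on chromosome 3 one at 1514 bp. MELO3C015523.2 on chromosome 2, which is also named for hydrolase activity, had a peak centred 910 bp upstream.

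Most of the multiple and wide peaks named in the cysteine class lay far from gene starts. MELO3C029129.2 on chromosome 1 had 4 peaks, the most of any protease gene. Their centres lay 3077 bp into the gene, in the promoter class by its edge, and 13939, 25600 and 26534 bp upstream. The widest peak of the class, 831 bp, lay 9692 bp upstream of MELO3C030528.2 on chromosome 4. MELO3C008520.2, the only protease gene also named for autophagy, the bulk delivery of cell contents to the vacuole, had 2 peaks, 17419 and 22024 bp upstream.

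Aspartic proteases, which in plants include vacuolar and cell wall enzymes, had an upstream peak at 4 of 24 genes, or 16.7% (4.74 to 37.4). The share of all GO-annotated genes was 17.8%. The peak of MELO3C021207.2 on chromosome 11, a membrane protein gene, covered the start at 31329565 to 31330006, centred 95 bp upstream. The others were further out. Peak centres lay 1589 bp upstream of MELO3C020328.2 on chromosome 6, 1793 bp upstream of MELO3C010628.2 and 1934 bp upstream of MELO3C030138.2, both on chromosome 3. MELO3C030138.2 had a second peak 7617 bp upstream. The gene with most aspartic-class peaks was MELO3C008559.2 on chromosome 5, with centres 12334 and 15681 bp upstream and 16264 bp from the start past the gene's end. The widest, 550 bp, was assigned to MELO3C014365.2 and lay past that gene's end, 7371 bp from its start. A group of 3 aspartic genes was also named for nucleic acid binding and zinc binding, MELO3C029128.2, MELO3C030157.2 and MELO3C032168.2. MELO3C029128.2 was named for DNA integration as well. A promoter-class peak was found at 0 of the 3, against 49.0% of all GO-annotated genes.

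The serine class had an upstream peak at 2 of 17 genes once 2 inhibitors were set apart, or 11.8% (1.46 to 36.4), against 17.8% of all GO-annotated genes. MELO3C017652.2 on chromosome 7, named for the endoplasmic reticulum membrane, had a peak of 409 bp at 25970781 to 25971189, centred 379 bp upstream. MELO3C020288.2 on chromosome 6 had one of 324 bp centred 1356 bp upstream of a gene model of 59806 bp, the longest of the 165. The widest peaks of this class, 756 bp each, belonged to MELO3C023905.2 on chromosome 10 and MELO3C020625.2 on chromosome 12. That of MELO3C023905.2 was centred 2350 bp upstream, and this gene had a second peak of 628 bp at 9188 bp upstream. That of MELO3C020625.2 was distal intergenic, centred 8379 bp upstream.

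Protease inhibitors entered the list because their GO names mention the regulation of peptidase activity, and they were few. The 12 genes were 10 for inhibitors of cysteine proteases, the cystatin type of activity, and 2 for inhibitors of serine proteases, both named for the response to wounding. They are all the genes of the table with a GO name for a peptidase inhibitor, and genes without a GO term could not be read. An upstream peak was found at 2 of the 12, or 16.7% (2.09 to 48.4), against 17.8% of all GO-annotated genes. A promoter-class peak was found at 5, or 41.7% (15.2 to 72.3), against 49.0%. The neighbouring cysteine inhibitor genes MELO3C018580.2 and MELO3C018581.2 on chromosome 1, 3586 bp apart, each had a peak over the start. They were the only 2 of the 12 inhibitor genes with one, or 16.7% (2.09 to 48.4), against 4.37% of all GO-annotated genes. The peak of MELO3C018580.2, 439 bp at 1231461 to 1231899, was centred 136 bp upstream, and that of MELO3C018581.2, 511 bp, was centred 133 bp from the start inside the gene. The wound-response inhibitor gene MELO3C006464.2 on chromosome 6 had a peak of 351 bp centred 946 bp upstream. The other, MELO3C000685.2 on chr0, had one 10546 bp upstream.

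Metalloproteases had a promoter-class peak at 6 of 12 genes, or 50.0%, against 49.0% of all GO-annotated genes. An upstream peak was found at 3, or 25% (5.49 to 57.2), against 17.8%. MELO3C003139.2 on chromosome 8, an ATP-binding membrane metalloprotease gene, had a peak of 463 bp at 32467114 to 32467576, centred 299 bp upstream. MELO3C006089.2 on chromosome 6, named for CAAX-box processing, had one of 315 bp centred 1969 bp upstream. Of the 6 genes named for the extracellular matrix, all zinc metalloproteases, 3 had a promoter-class peak, all on chromosome 9. MELO3C021492.2 had a peak of 615 bp at 2687438 to 2688052, centred 1383 bp upstream. MELO3C021495.2 had the widest peak of the class, 661 bp, 1777 bp from the start and past the end of a gene of 1140 bp. MELO3C021507.2 had one of 563 bp, 1419 bp from the start and past the gene's end. The matrix genes MELO3C010038.2 and MELO3C010040.2 on chromosome 2 had 2 peaks each, with centres 5215 to 43502 bp from their starts. The sixth, MELO3C005528.2 on chromosome 9, had its peak 3742 bp upstream.

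Genes without a class name had the highest share of promoter-class peaks, at 22 of 29, or 75.9% (56.5 to 89.7), against 49.0% of all GO-annotated genes. An upstream peak was found at 7 of 29, or 24.1% (10.3 to 43.5), an interval that takes in 17.8%. Short models were common in this class, 13 of 29 spanning less than 500 bp. The promoter share was 53.8% in these (7 of 13), against 40.6% of short GO-annotated genes, and 93.8% in the longer ones (15 of 16), against 49.7%. The upstream shares were 23.1% in the short models and 25% in the longer ones, against 13.3% and 18.1% of GO-annotated genes of like length. On the numbered chromosomes, 16 of the 24 inner peaks of the class were promoter-class (66.7%), against 35.1% for all GO-annotated genes, and so were all 7 outer ones, against 63.1%. The class was singled out after its values were seen.

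Within that class, the genes for ATP-driven protein unfolding and for protein anchoring stood beside 17 genes with no name beyond proteolysis and peptidase activity, 11 of them with short models. MELO3C022115.2 on chromosome 9, named for ATP binding, protein folding and unfolded protein binding, had a peak of 349 bp over its start, centred 166 bp upstream. The other 2 genes with these names, MELO3C022924.2 on chromosome 10 and MELO3C008495.2 on chromosome 6, had promoter-class peaks centred 2263 bp upstream and 2060 bp into the gene. The 3 genes named for a microtubule-severing ATPase activity, MELO3C004083.2, MELO3C004531.2 and MELO3C026627.2, also had promoter-class peaks, none centred within 2 kb upstream. A promoter-class peak was found at 75.9% of this class as a whole and at 49.0% of all GO-annotated genes. MELO3C024666.2 on chromosome 2 is named for the GPI-anchor transamidase, which cuts a protein and attaches it to a membrane lipid, and had a peak of 512 bp at 20795869 to 20796380, centred 980 bp upstream. MELO3C022658.2 on chromosome 4, a membrane peptidase gene, had one of 541 bp centred 1273 bp upstream. A peak of 655 bp covered the start of MELO3C035496.2 on chromosome 12, with its centre 143 bp upstream.

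The remaining genes of the class with a peak within 2 kb upstream all had short models. MELO3C032969.2 on chromosome 8 spans 313 bp and had a peak centred 927 bp upstream. MELO3C018204.2 on chromosome 4 spans 222 bp and had a peak of 685 bp at 928 bp. MELO3C010541.2 on chromosome 7 spans 420 bp and had a peak at 1442 bp. The widest peak of the class, 817 bp, lay 34998 bp from the start of MELO3C027591.2 on chr0, past the gene's end. The protease genes named for ATP binding, most of them in this same class, were grouped after the values were seen. They had a promoter-class peak at 9 of 12, or 75% (42.8 to 94.5), against 49.3% of the 347 GO-annotated genes named for ATP binding. An upstream peak was found at 2 of the 12, or 16.7%, against 17.3%.

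At the 2 kb limit, the members just inside were MELO3C030138.2 at 1934 bp and MELO3C006089.2 at 1969 bp. Just outside were MELO3C020019.2 at 2013 bp and MELO3C022924.2 at 2263 bp. The 34 upstream peaks had a median centre distance of 933.5 bp, and 14 of them lay between 1 and 2 kb.

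**Figure D5:**
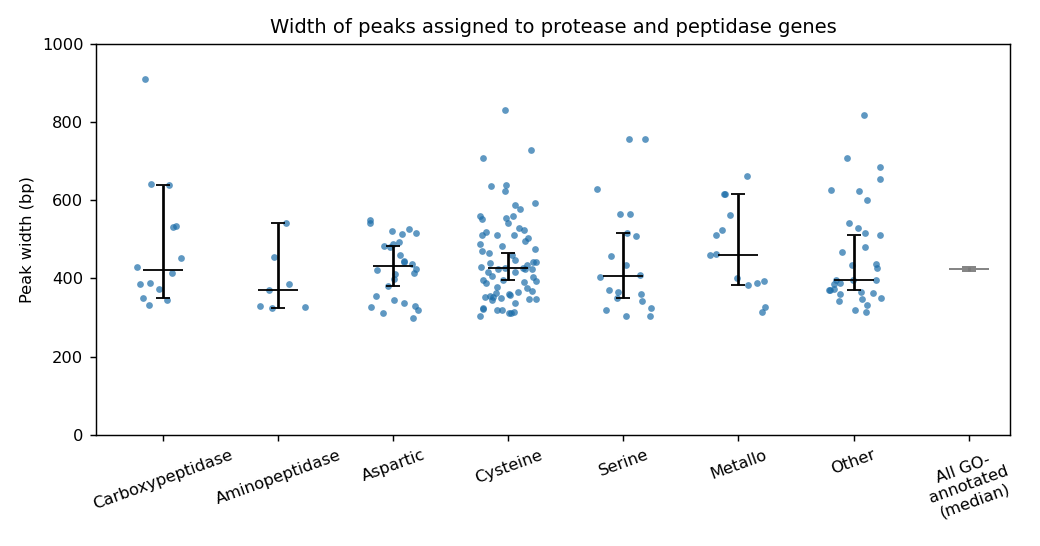
Width in bp of each of the 187 peaks by class, with the class median and its 95% exact order-statistic interval in black, and at the right the median of the 4107 peaks of all GO-annotated genes with its interval in grey. The medians lie between 370 bp for the 7 aminopeptidase peaks and 461 bp for the 14 metalloprotease peaks, and the interval of each class takes in the 424 bp of all GO-annotated genes.

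Peak widths were close to those of GO-annotated genes as a whole. The median width was 425 bp (95% exact order-statistic interval 399 to 442) against 424 bp for all GO-annotated genes, with a range of 298 to 911 bp. Carboxypeptidase peaks had a median of 422.5 bp (349 to 638). A width at or above the 90th percentile of the table, 589 bp, was reached by 23 of the 187 peaks (12.3%) and by 3 of the 14 carboxypeptidase peaks. Width is not a measure of enrichment.

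Most protease genes had a single peak, 147 of the 165. The 18 with more (10.9%) compare with 14.8% of all GO-annotated genes. Of the 7 peaks classed as exon, 4 lay in a gene other than the one they were assigned to, and so did 4 of the 12 classed as intron. The assigned gene is thus not always the gene that holds the peak. How often this occurs among all GO-annotated genes was not counted.

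Related lists gave shares on both sides of those of all GO-annotated genes, 17.8% with an upstream peak and 49.0% with a promoter-class peak. Of 60 genes named for ubiquitin or the proteasome, the pathway that marks proteins with a small tag and degrades them in a barrel-shaped complex, 13 had an upstream peak (21.7%, 12.1 to 34.2) and 32 a promoter-class peak (53.3%, 40.0 to 66.3). Protein kinase genes, a large enzyme family, gave 32 of 166 (19.3%) and 81 of 166 (48.8%). Among 21 further genes named for the vacuole or lysosome 2 had an upstream peak (9.52%) and 7 a promoter-class peak (33.3%). Among 19 genes of protein folding there were 1 (5.26%) and 11 (57.9%), and among 5 of autophagy 1 (20.0%) and 3 (60.0%). The protease interval for promoter-class peaks, 35.4 to 51.0%, overlaps those of the ubiquitin and kinase lists, and these differences were not tested.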

How the data were processed

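DAP-seq was done with 2 MBP-His-CmNOR and 2 MBP-His libraries. Per the submitters' processing notes, MACS2 and deepTools were used; no source used here gives their versions and thresholds, the aligner, the genome build, the annotation or how libraries were combined. How many weak sites are listed, and whether each was seen in both CmNOR libraries, therefore cannot be read from the table. The authors deposited 1 table of 5493 peaks with positions, widths, an assigned gene, a signed distance, a location class and GO names, per the file headers. It has no count, score or p-value.

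In all 5493 rows the listed width was that given by both end positions counted in, and promoter peaks were those with a listed distance up to 3 kb. The RefSeq gene table held 0 of the 4510 identifiers, so no sequence is printed. The cysteine and serine classes, read from GO names, took in 10 and 2 inhibitor genes, which are also given apart. The peak centre was placed relative to the start of the assigned gene in the gene's direction. Shares were set beside those of all GO-annotated genes, with exact Clopper-Pearson intervals, and medians with order-statistic intervals; the interval level was 95%. Position rules were tested on simulated peaks. No test across libraries or genes was run.

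The members, classes and related lists were chosen with earlier results of these data known. The text names all carboxypeptidase genes and, in each other class, up to 10 genes with the nearest upstream peak, the widest peak, genes with 3 or more peaks, and those beside the 2 kb limit. Other genes were named after their values were seen, among them the remaining aminopeptidase and inhibitor genes, matrix metalloproteases, microtubule-severing and nucleic acid binding genes, neighbouring genes and MELO3C008520.2, MELO3C008495.2 and MELO3C028784.2. The work was done in Python 3.11.15 with pandas 2.3.3 and numpy 2.4.6; intervals came from scipy 1.17.1 and figures from matplotlib 3.10.9. Alternatives covered the upstream limit, overlap, width, chr0, the gene list and gene length.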

Additional observations from a re-analysis of the deposited data

How the results depend on the processing

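The alternatives leaving out inhibitor genes and gene models under 500 bp were chosen after seeing the data. With an upstream limit of 1 kb, 20 protease genes (12.1%) and 2 carboxypeptidase genes (16.7%) had an upstream peak, in place of 34 and 5, against 9.72% of all GO-annotated genes. Counting only peaks of at least the median width left 16 protease (9.70%) and 2 carboxypeptidase genes (16.7%) with an upstream peak, against 9.34% of all GO-annotated genes. It left 36 (21.8%) and 3 (25%) with a promoter-class peak, in place of 71 and 6, against 26.6%. Without chr0, 3 of 9 carboxypeptidase genes (33.3%) had an upstream peak, against 17.9%, and 4 (44.4%) a promoter-class peak, against 49.7%. With only the name serine-type carboxypeptidase activity, 3 of 5 genes (60.0%) had an upstream peak and 3 a promoter-class peak, against 17.8% and 49.0%. These counts fall because fewer genes or peaks enter. With an upstream limit of 3 kb the shares were 24.8% of protease genes, 41.7% of carboxypeptidase genes and 24.3% of all GO-annotated genes. Changes to the gene list were run for all protease genes only. Keeping ubiquitin genes gave 36 of 178 genes with an upstream peak (20.2%) and 78 with a promoter-class peak (43.8%). Requiring a peptidase activity name and leaving out inhibitors left the same 153 genes, 32 with an upstream peak (20.9%) and 66 with a promoter-class peak (43.1%). The shares of all GO-annotated genes were 17.8% and 49.0%. Too few genes entered or left for these counts to move far, so they are no check on them. Counting any overlap of at least 1 bp, run for the upstream counts only, gave 40 protease and 5 carboxypeptidase genes. In gene models of at least 500 bp, 30 of 136 protease genes (22.1%) and 4 of 9 carboxypeptidase genes (44.4%) had an upstream peak, against 18.1%. A promoter-class peak was found at 61 (44.9%) and 5 (55.6%) of them, against 49.7%. Median widths ran from 425 to 429 bp for protease genes and from 422.5 to 535 bp for carboxypeptidase genes. With no enrichment value or library count, depth could not be weighed. No paired analysis was possible because the table has no value per library, and for the same reason no library could be left out.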

Other observations

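Protease genes made up a larger part of the genes on chr0 than elsewhere. There, 11 of 87 GO-annotated genes with a peak were protease genes (12.6%), against 4.84% in the whole table and 3.57% to 6.74% on the numbered chromosomes, lowest on chromosome 4 and highest on chromosome 11. The difference was not tested.

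Some protease genes with peaks were neighbours. Of the 165, 20 formed 10 pairs of next members at most 100 kb apart, and 4 pairs were of the same class. No such count was made for other gene lists, so whether this number is unusual is not known. The closest were MELO3C029126.2 and MELO3C029127.2 on chromosome 1, both cysteine-type, 42 bp apart, with peaks 4892 bp upstream and 29738 bp from the start. The carboxypeptidase gene MELO3C021473.2 and the aspartic protease gene MELO3C021471.2 on chromosome 11 lay 9745 bp apart, with peaks 1809 bp upstream and 3296 bp into the gene.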
